A study of Mus musculus with 2 samples.

Results

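Weak distal regions of open chromatin in G1E-ER4 cells, which fall below a reproducibility threshold and outnumber the distal regions that pass it, are described here. They numbered 20902 of the 46345 merged regions in the authors' list of replicated peaks. A region was a member when it overlapped no peak past the irreproducible discovery rate (IDR) threshold of 0.05, in either the true replicates or the pooled pseudoreplicates, and when its strongest summit lay over 1 kb from every transcription start site (TSS) of a protein-coding transcript. The other regions were 12734 strong distal regions, which passed the threshold, 9987 strong promoter regions and 2722 weak promoter regions. IDR estimates, from the ranks of a peak in 2 lists, the chance that the peak is not reproducible. Membership was therefore chosen on the measured ranks, and the comparisons of signal and reproducibility with strong distal regions describe that choice.

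ATAC-seq marks open chromatin by letting a transposase cut accessible DNA and attach sequencing adapters there. G1E-ER4 is a male mouse line, labelled C57BL/6J, of erythroid cells derived from Gata1-deficient cells that carry GATA1 fused to the ligand-binding part of the estrogen receptor, so that estradiol restores GATA1 activity. Both libraries came from 50000 cells each of this line, kept for 24 hours in 10 nM 17Beta-estradiol, and are labelled biological replicates 1 and 2 of the same group. No other group was analysed here, so no value below is a response to estradiol, and nothing in the labels says whether the cultures were separate. With 1 group and 2 libraries no test between conditions was possible, and regions of a library are not replicates. Differences were instead set against the spread between the libraries, for which the same rule was applied to each library's own lists (14730 members in library 1 and 16818 in library 2).

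Distal open regions include enhancers, silencers and insulators. In red cell precursors many are bound by GATA1, a zinc-finger factor that recognises AGATAA and close variants, often together with TAL1, a basic helix-loop-helix factor that reads an E-box a short distance away. KLF1 binds CACCC boxes in the same cells, and CTCF, an insulator and loop-anchor protein present in nearly every cell type, binds a long motif of its own. Of 11 red cell markers, 10 had a strong region within 1 kb of a TSS, among them the globin genes Hba-a1 and Hbb-bs and the factors Gata1 and Klf1, and the exception was Alas2, the heme synthesis enzyme. The same held for 5 of 7 progenitor markers (Kit, Gata2, Meis1, Runx1 and Hhex), 3 of 4 megakaryocyte markers (Pf4, Gp1ba and Itga2b), 1 of 5 lymphoid markers (Rag1) and 1 of 5 myeloid and mast cell markers (Spi1).

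The sequences below are examples chosen because they hold a motif, so they do not show how common each motif is. Of all members, 51.7% held a GATA motif, 5.48% the E-box GATA composite and 7.19% the CTCF core. In 17.2% none of the motifs searched was present. Each sequence is the summit base and 100 bases to either side on the plus strand of GRCm38 (RefSeq), with the matched motif in capitals. The first pair comes from the 10 members of largest signal and has GATA motifs. The Vstm2a sequence, an intergenic site at chr11:15698516-15698716, holds a pair of overlapping GATA motifs. Its summit lies in an annotated repeat (all members 11.3%), and repeats cover 47.8% of the window. The Specc1 sequence, in an intron at chr11:62148581-62148781, has 1 GATA motif to either side of the summit.
Vstm2a: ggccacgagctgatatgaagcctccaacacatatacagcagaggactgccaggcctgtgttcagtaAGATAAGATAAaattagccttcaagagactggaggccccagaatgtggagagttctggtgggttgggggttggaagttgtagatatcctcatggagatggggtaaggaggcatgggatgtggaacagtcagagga
Specc1: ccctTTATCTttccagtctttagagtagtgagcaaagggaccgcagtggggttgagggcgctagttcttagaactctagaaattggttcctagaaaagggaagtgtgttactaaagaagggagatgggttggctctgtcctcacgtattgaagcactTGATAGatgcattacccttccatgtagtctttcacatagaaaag
The next set holds the E-box GATA composite, the arrangement read by TAL1 together with GATA1. They lie in introns of Scube2 (chr7:109844203-109844403), Grm8 (chr6:27888048-27888248) and Prtg (chr9:72902718-72902918, named Pygo1 after its nearest TSS). In the last the motif is on the minus strand, and repeats cover 59.2% of the window but not the summit.
Scube2: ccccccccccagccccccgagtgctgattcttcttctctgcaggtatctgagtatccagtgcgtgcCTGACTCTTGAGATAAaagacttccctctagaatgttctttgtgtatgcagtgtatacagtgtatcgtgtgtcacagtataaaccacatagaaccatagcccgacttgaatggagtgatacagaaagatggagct
Grm8: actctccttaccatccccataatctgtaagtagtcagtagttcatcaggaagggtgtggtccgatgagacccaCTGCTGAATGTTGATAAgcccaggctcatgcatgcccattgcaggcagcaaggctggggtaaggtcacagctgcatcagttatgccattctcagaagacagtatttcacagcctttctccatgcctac
Pygo1: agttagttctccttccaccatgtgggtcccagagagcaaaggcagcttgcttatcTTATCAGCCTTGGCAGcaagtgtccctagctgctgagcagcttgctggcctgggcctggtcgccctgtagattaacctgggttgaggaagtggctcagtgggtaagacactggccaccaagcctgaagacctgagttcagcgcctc
The last set holds the CTCF core. Filip1 (chr9:80002873-80003073) and Zfp64 (chr2:168904265-168904465) are intronic, whereas Ctcfl (chr2:173089591-173089791) and Igsf5 (chr16:96345218-96345418) are intergenic, and Igsf5 is also among the members nearest to the IDR limit.
Filip1: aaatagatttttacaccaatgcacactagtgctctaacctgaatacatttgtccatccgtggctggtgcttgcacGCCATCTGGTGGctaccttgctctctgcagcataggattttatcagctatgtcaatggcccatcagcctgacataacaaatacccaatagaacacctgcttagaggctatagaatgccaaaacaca
Zfp64: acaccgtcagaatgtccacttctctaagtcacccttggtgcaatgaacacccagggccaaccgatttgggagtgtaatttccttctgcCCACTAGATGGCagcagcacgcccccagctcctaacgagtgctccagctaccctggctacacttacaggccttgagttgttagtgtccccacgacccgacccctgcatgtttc
Ctcfl: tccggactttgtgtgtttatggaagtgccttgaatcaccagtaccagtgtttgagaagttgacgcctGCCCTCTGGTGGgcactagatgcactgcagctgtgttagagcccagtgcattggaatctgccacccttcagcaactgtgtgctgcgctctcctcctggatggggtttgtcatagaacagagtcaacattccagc
Igsf5: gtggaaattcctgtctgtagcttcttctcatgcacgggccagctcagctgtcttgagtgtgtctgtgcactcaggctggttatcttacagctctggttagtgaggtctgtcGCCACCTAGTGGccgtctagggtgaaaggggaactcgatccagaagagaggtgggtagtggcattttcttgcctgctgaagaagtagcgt

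The members were narrow and weak. Signal is the authors' value per peak, with a scaling that was not given in the sources used here. It was compared only within a list. Members had a median signal of 4.68 (lowest 1.82, highest 12.1), against 8.93 in strong distal regions, and a median −log10 p of 8.91 against 28.8. The ranges overlapped, but only 94 members exceeded the median signal of strong distal regions and 374 strong distal regions fell under the median of members. Median width was 273 bp in members and 406 bp in strong distal regions. In the ranked list of true replicates, 12844 members (61.4%) had a global IDR over 0.5, and 1172 (5.61%) were below 0.1. Weakness here is relative to the threshold, since 18130 members (86.7%) had a q-value of 0.001 or less in the authors' list. A q-value over 0.05 was found for 469 members. All strong distal and strong promoter regions met the limit of 0.001, with lowest −log10 q values of 4.77 and 5.84. By this measure too, members were below the strong regions.

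**Figure D1:**
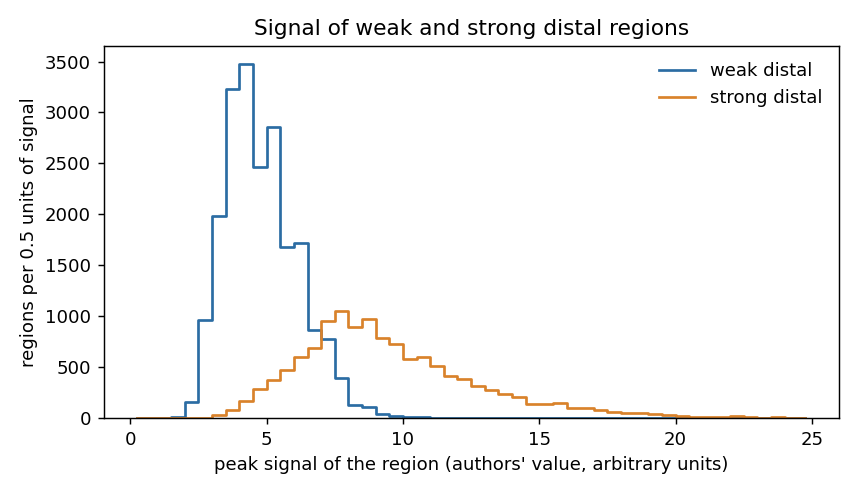
Number of weak distal and strong distal regions (y axis, regions per 0.5 units) by peak signal (x axis, authors' value, shown up to 25). Weak distal regions centre on a median of 4.68 and strong distal regions on 8.93, with overlapping ranges.

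The regions on either side of the IDR limit had similar values. The 3 members nearest above it had a global IDR of 0.0500026 (an intron of Hacd1, signal 7.01), 0.0500192 (an intron of Tcea1, signal 7.01) and 0.050069 (upstream of Igsf5, signal 8.93). The 3 distal regions nearest below it, which were not members, had 0.049986 (nearest TSS Cd5, signal 8.42), 0.0499694 (Ddx59, signal 6.46) and 0.0499528 (Ccdc13, signal 5.69). At the distance limit, members in introns of Rnf219, Scaf11 and Art3 had summits 1001, 1001 and 1003 bp from a TSS, with signals of 2.48, 3.22 and 4.10. The weak regions at Crebbp, Golga4 and Smyd3, which were not members, had summits at 1000, 1000 and 999 bp and signals of 4.14, 3.95 and 4.63.

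For none of the 10 members of largest signal was the nearest TSS that of a gene in the red cell lists. These lists hold only 80 of 21911 protein-coding genes, so their absence from 10 regions carries little weight. The strongest member, at chr11:15698380-15698795, lay 559 kb upstream of the nearest TSS, that of Vstm2a, with a signal of 12.1 in the replicated list. Its signal was 10.9 in the list of library 1 and 6.70 in that of library 2, values on separate scales. The second, at chr14:16447645-16447948 in an intron of Rarb, a retinoic acid receptor gene, had 12.1 in the replicated list, 6.35 in library 1 and 10.5 in library 2. The third, in an intron of Specc1 at chr11:62148296-62149000, had 11.5 in the replicated list, 12.8 in library 1 and 6.99 in library 2. All 3 had peaks in both libraries, and the libraries did not rank them alike: Specc1 was highest of the 3 in library 1 and Rarb in library 2.

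The other members of the strongest 10 lay near Tbc1d30, Cbfa2t2, Slc45a1, Agps, Chmp5, Azin2 and Stx1a, with signals from 10.8 to 11.2. Cbfa2t2 encodes a transcriptional corepressor of the ETO family, and its member lay in an intron 19.1 kb from the TSS with a GATA motif and an E-box. The members near Tbc1d30 and Azin2 had a peak in library 1 and none in the list of library 2. GATA motifs were present at 5 of the 10 (all members 51.7%). The CTCF core, searched as an exact pattern that misses close variants, was at none (all members 7.19%).

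A member was most often absent from one or both of the libraries' own peak lists. A peak overlapped the region in both libraries for 3977 members (19.0%, 95% Wilson interval 18.5 to 19.6%), where the figure for all 46345 regions was 56.2%. It did so in library 1 only for 2955 members (14.1%, all regions 8.09%), in library 2 only for 4679 (22.4%, all regions 13.3%) and in neither for 9291 (44.5%, all regions 22.4%). Strong distal regions were in both lists in 91.8% of cases and in neither in 0.581%. Library 2, with more peaks (43367 against 38985), held 41.4% of members (all regions 69.5%) and library 1 held 33.2% (all regions 64.3%). The libraries' own IDR-thresholded lists, at the same limit, held 65 members in library 1 (0.311%, all regions 29.9%) and 139 in library 2 (0.665%, all regions 33.2%). These lists and the list that chose the members come from the same reads, so the shares describe the choice. All intervals cover counting error only, and the read depth is unknown.

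Presence rose with signal. The members were ranked by signal and divided into 10 bins of equal size. From the weakest to the strongest bin the share called in both libraries went from 2.68% to 48.9%, and the share called in neither went from 81.5% to 6.31%. The values in the libraries tracked each other loosely. Among 4067 members with a value in both libraries, Spearman's rho between the libraries' signals was 0.214, against 0.761 among 11699 strong distal regions, and that of −log10 p was 0.0619 against 0.773. These correlations run across regions of the same pair of libraries over a narrow range of signal that the rule set, and no p-value applies to them. A further replicated list that the deposit marks as archived, with 192651 peaks, overlapped 93.9% of members (all regions 96.9%).

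**Figure D2:**
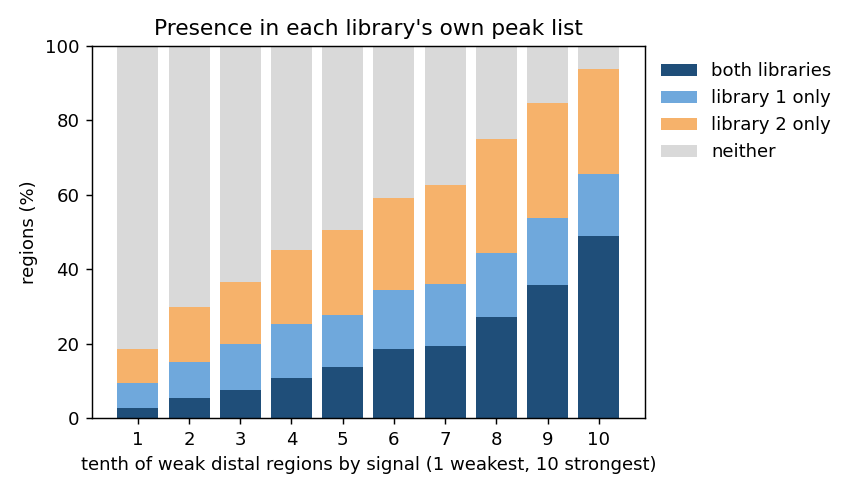
Share of weak distal regions (y axis, percent) with a peak in both libraries, library 1 only, library 2 only or neither, for 10 equal bins of signal (x axis, bin 1 weakest). The share in both libraries rises from 2.68% to 48.9% across the bins and the share in neither falls from 81.5% to 6.31%.

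Members resembled strong distal regions in their shares of introns, exons and intergenic DNA, and lay farther from protein-coding TSSs. Introns held 11695 members (56.0%), against 55.3% of strong distal regions and 40.1% of the genome. Intergenic DNA held 36.5% (strong distal 35.7%, genome 55.2%) and exons 7.54% (strong distal 8.95%, genome 4.70%). With the rule applied to each library alone, the intron share was 56.6% ± 0.914 in weak and 55.3% ± 0.149 in strong distal regions (SD, n = 2 libraries), a difference somewhat above the larger SD. The median distance to the nearest protein-coding TSS was 20.1 kb in members and 15.8 kb in strong distal regions. For the libraries alone these medians were 17.97 kb ± 0.152 and 16.0 kb ± 0.26 (SD, n = 2). More members lay over 100 kb from a TSS (14.0% against 7.57% of strong distal regions), and fewer lay 1 to 5 kb away (14.2% against 19.3%). The median member was 14.5 kb from the nearest strong region, and 4648 members (22.2%) had one within 5 kb, against 32.0% of strong distal regions (counting only others). Members within 5 kb were concentrated among the weakest: 37.5% in the weakest bin of signal and 6.26% in the strongest. A TSS of a noncoding transcript lay within 1 kb of 7.38% of members and 11.5% of strong distal regions.

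Members had a base composition between that of strong distal regions and of surrounding DNA. Median GC content within 100 bases of the summit was 48.8% in members, 51.7% in strong distal regions and 44.3% in 37512 windows of the same length 1 kb to either side of members. No CpG was present in 15.1% of member windows, 9.0% of strong distal windows and 23.1% of flanks. The summit base lay in an annotated repeat in 11.3% of members, 8.72% of strong distal regions and 28.4% of flanks. For the libraries alone the repeat share was 10.5% ± 0.135 in weak and 7.61% ± 0.524 in strong distal regions (SD, n = 2), a difference larger than either SD.

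GATA motifs were about as frequent in members as in strong distal regions, and the E-box GATA composite was less frequent. The GATA motif was searched on both strands as AGATAA or TGATAA and, with a final G, as AGATAG or TGATAG. It occurred within 100 bases of the summit in 10802 members (51.7%, interval 51.0 to 52.4%; all regions 41.8%), in 50.8% of strong distal regions and in 31.8% of flanks, although flanks were richer in A and T. For the libraries alone the shares were 52.5% ± 0.365 in weak and 53.0% ± 0.578 in strong distal regions (SD, n = 2), the opposite order, and the difference was smaller than the larger SD. The composite is CTG, then 7 or 8 bases of any kind, then AGATAA or TGATAA, so every match also holds a GATA motif. It occurred in 1146 members (5.48%, interval 5.18 to 5.80%; all regions 5.11%), in 8.26% of strong distal regions and in 0.722% of flanks. For the libraries alone it was 6.32% ± 0.206 in weak and 9.69% ± 0.516 in strong distal regions, a difference larger than the SDs. A single GATA motif was present in 33.7% of members, 2 in 14.2% and 3 or more in 3.8%, against 33.7%, 13.8% and 3.32% of strong distal regions.

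Most other motifs occurred above flank level in members. CACCC boxes, searched as CCACACCC, CCCCACCC and CCCCGCCC and read by KLF and SP factors, were in 11.2% of members (all regions 19.2%), 17.4% of strong distal regions and 4.89% of flanks. For the libraries alone this was 12.8% ± 0.463 in weak and 19.7% ± 0.598 in strong distal regions (SD, n = 2). The RUNX motif, TGTGGTT, was in 7.70% of members (all regions 6.44%), 8.05% of strong distal regions and 5.11% of flanks. The AP-1 motif, TGACTCA or its complement, bound by JUN and FOS, was in 8.38% of members (all regions 7.16%), 9.37% of strong distal regions and 3.31% of flanks. The longer NF-E2 motif, which holds an AP-1 motif and is read by NFE2, a globin gene activator, was in 1.71% of members (all regions 1.38%), 2.02% of strong distal regions and 0.0826% of flanks. ETS motifs (ACAGGAAG or ACCGGAAG) were in 4.44% of members (all regions 5.47%), 5.54% of strong distal regions and 2.06% of flanks. The C/EBP motif, TTGCNNAA, of factors that act in myeloid and liver cells, was in 7.07% of members (all regions 6.39%), 6.74% of strong distal regions and 8.18% of flanks, the highest share being in flanks. The full estrogen response element was in 3 members (0.0144%, all regions 0.0173%) and in 0.0213% of flanks. The E-box, CAGCTG or CAGATG, read by TAL1 and other basic helix-loop-helix factors, was in 30.7% of members (all regions 27.6%), 32.1% of strong distal regions and 22.7% of flanks. For the libraries alone the order of the classes was the opposite, with 31.7% ± 0.0528 in weak and 31.3% ± 0.481 in strong distal regions (SD, n = 2), a difference smaller than the larger SD. The PU.1 motif, GAGGAAGT, was in 3.14% of members (all regions 2.87%), 3.16% of strong distal regions and 1.2% of flanks. The MEIS motif, TGACAGNT, was in 4.89% of members (all regions 4.35%) and 3.59% of flanks, and the STAT motif, TTCCNNGAA, in 3.61% (all regions 3.53%) and 2.93% of flanks. The YY1 motif, AAGATGGC, was lower in members than in flanks, at 1.42% (all regions 1.95%) and 1.63%. The CRE, TGACGTCA, bound by CREB and ATF factors, was in 67 members (0.321%, all regions 1.18%), 0.730% of strong distal regions and 0.133% of flanks. The NRF1 and NFI motifs were rare, with 4 members (0.0191%, all regions 0.41%) and 3 members (0.0144%, all regions 0.0108%). None of the 18 motifs searched was present in 3597 members (17.2%).

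**Figure D3:**
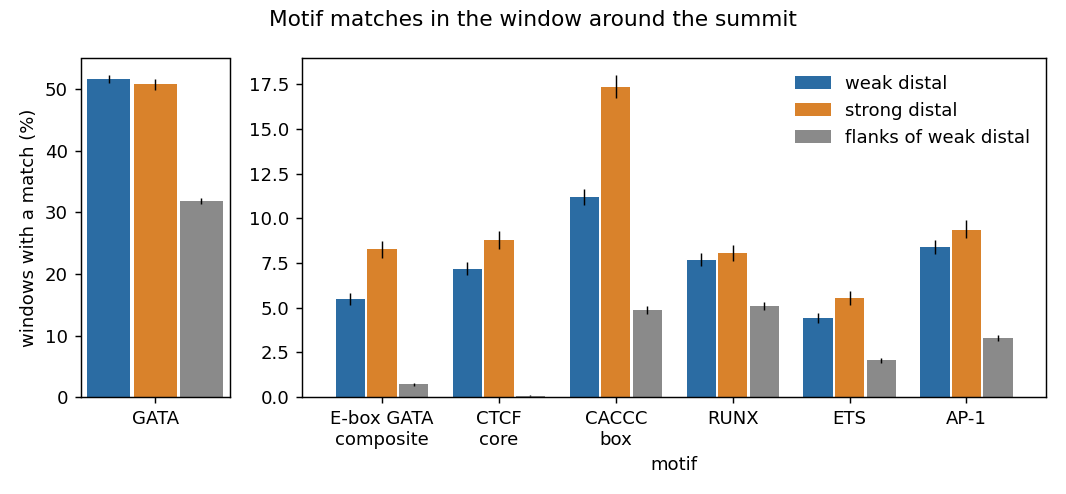
Share of windows (100 bases to either side of the summit) with a motif match (y axes, percent, different scales in the left and right panel) in weak distal regions, strong distal regions and flanks 1 kb to either side of weak distal regions, with 95% Wilson intervals. GATA matches are at 51.7% and 50.8% in the region classes and 31.8% in flanks, and the CTCF core is nearly absent from flanks (0.072%).

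The CTCF core was in 1502 members (7.19%, interval 6.84 to 7.54%; all regions 6.04%), in 8.78% of strong distal regions and in 0.072% of flanks. The order of the classes depended on the lists: for the libraries alone the share was 8.09% ± 0.0992 in weak and 6.38% ± 0.111 in strong distal regions (SD, n = 2). Matches sat at the summit. Of 1628 matches within 500 bases of member summits, 1457 lay within 50 bases of the summit, and those within 100 bases had a median distance of 15 bases. GATA matches within 100 bases had a median distance of 47 bases, and their density within 50 bases was 402 per 100 kb, 1.61 times that found 400 to 500 bases away (249 per 100 kb). In strong distal regions the same densities were 393 and 202 per 100 kb, a ratio of 1.94. The composite was 7.72 times as dense at the member summit as 400 to 500 bases away, and 12.5 times in strong distal regions.

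**Figure D4:**
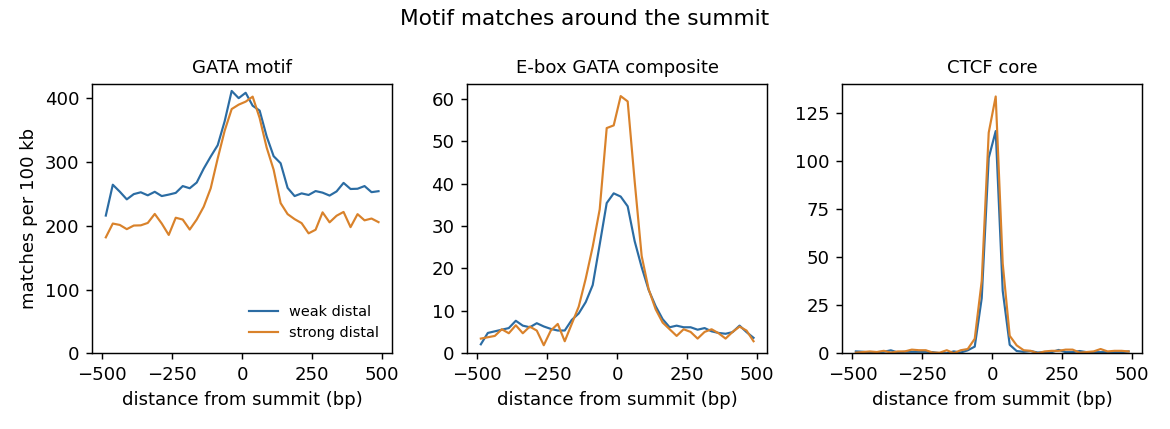
Density of motif matches (y axes, matches per 100 kb) by distance from the summit (x axes, bp, in 25 bp steps) in weak and strong distal regions. CTCF core matches are concentrated at the summit, and GATA matches form a broad rise above a level that is higher beside weak distal regions (249 per 100 kb) than beside strong ones (202 per 100 kb).

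Among the members, motif content changed with signal, and GATA and CTCF moved in opposite directions. The CTCF core was in 1.58% of the weakest bin of signal (interval 1.13 to 2.21%) and 16.7% of the strongest (15.2 to 18.4%), with a rise at every step between. GATA motifs were in 53.8% of the weakest bin, 57.3% of the second and 43.5% of the strongest. The composite showed no such trend (4.59% in the weakest, 7.13% in the third and 4.40% in the strongest bin). The same direction appeared in each library's own weak distal regions: the CTCF core went from 1.15% to 13.8% in library 1 and from 1.55% to 14.7% in library 2, and the GATA motif went from 57.5% to 44.8% and from 57.7% to 42.1%. Ranked by −log10 p instead, the CTCF core went from 1.63% to 12.5% and GATA from 52.6% to 47.0%. The rule limits the signal and −log10 p that members can have, and the libraries' lists come from the same reads. Strong distal regions with signals up to 4.14, from there to 5.30, and above had the CTCF core in 5.81%, 3.69% and 9.10%. GATA motifs were in 55.5%, 55.6% and 50.5% of them (155, 651 and 11928 regions).

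Width separated the motifs further. In 10 bins of width, GATA motifs were in 37.4% of the narrowest members and 65.5% of the widest, in windows of the same length. The CTCF core peaked in the third bin (215 to 231 bp) at 15.8% and was in 1.43% of the widest bin (467 to 1362 bp). Members with the CTCF core had a median width of 232 bp, a median signal of 5.64 and an intron share of 46.9%, against 277 bp, 4.56 and 56.7% in members without it. Members with a GATA motif had a median width of 297 bp, a median signal of 4.49 and an intron share of 60.1%, against 249 bp, 4.78 and 51.6% in those without. Strong distal regions had the same directions for width and intron share (294 bp and 45.4% with the CTCF core, 448 bp and 60.0% with GATA). Their median signal was 9.08 with the CTCF core and 8.90 without, and 8.73 with GATA and 9.05 without. The −log10 p went the other way than in members. With and without the CTCF core it was 25.7 and 29.4 (members 11.1 and 8.91). With and without GATA it was 29.1 and 28.5 (members 8.86 and 9.28). The CTCF core was in 3.60% of members with a GATA motif and 11.02% of those without, and in strong distal regions in 3.89% and 13.8%.

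**Figure D5:**
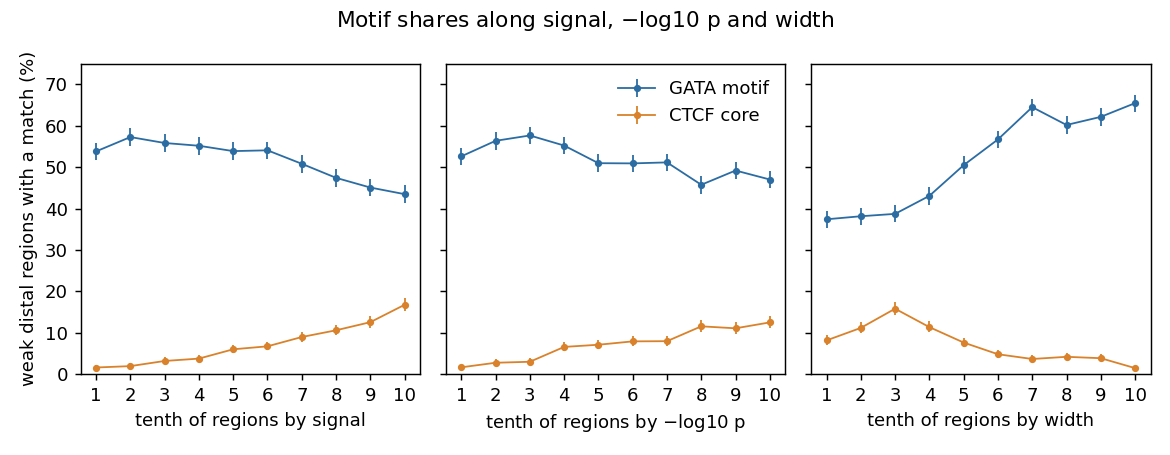
Share of weak distal regions with a GATA motif or a CTCF core (y axis, percent, 95% Wilson intervals) in 10 equal bins (x axes, bin 1 lowest) of signal, −log10 p and width. The CTCF core rises from 1.58% to 16.7% along signal and falls to 1.43% in the widest bin, where GATA is at 65.5%.

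Members called in both libraries were richer in GATA motifs than the rest, although strong signal went with fewer. GATA motifs were in 61.3% of members called in both libraries (interval 59.7 to 62.8%), 50.8% of those in library 1 only, 53.1% of those in library 2 only and 47.2% of those in neither (46.2 to 48.2%). The composite followed the same order at the ends, with 7.64% in both and 4.48% in neither. The CTCF core was in 5.08% of members called in both, 8.66% in library 1 only, 8.29% in library 2 only and 7.06% in neither. Width moved with these classes: its median was 371 bp in members called in both, 281 bp and 285 bp in those in 1 library, and 236 bp in those in neither, and its part in the result was not tested. The fall of GATA with signal was present within the classes. For members called in neither library it went from 52.2% at signals up to 4.14 to 33.0% above 5.30, and for those called in both from 66.7% to 58.4%. The CTCF core rose within them, from 2.99% to 18.8% in neither and from 1.15% to 7.20% in both.

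Weak distal regions lay near most genes and near nearly all genes of red cell function, and so did strong distal regions. A member lay within 50 kb of the body of 14736 of 21911 protein-coding genes (67.3%), and 4213 of these genes had no strong distal region in that range. For genes of 5 red cell lists (globins, heme, membrane, transcription factors, receptors with iron and survival) it did so for 73 of 80. All 9 globin genes and all 15 genes of the receptor, iron and survival list had one, as had 13 of 15 heme, 18 of 21 membrane and 18 of 20 transcription factor genes. The globin genes lie close together on chromosomes 11 and 7 and share members, so they are not separate counts. All 18 housekeeping genes had a member too, so nearness is shared with genes open in every cell type. For lists of other tissues it was 12 of 15 liver, 10 of 15 muscle and 7 of 15 neuron genes, and for other blood lineages 15 of 17 progenitor, 14 of 17 megakaryocyte, 15 of 20 myeloid and 11 of 20 lymphoid genes. The mean number per gene was 5.35 in the transcription factor list, 4.73 in the receptor list and 4.12 in the progenitor list (medians 4.5, 5 and 2), against a mean of 1.98 over all genes. Gene length moves with these counts: the median body was 25.3 kb for the transcription factors, 36.0 kb for the progenitor genes and 17.4 kb over all genes, and its part was not tested. Members made up 33.8% of distal regions near globin genes, counted once for each gene, and 58.3% near all genes. Nearness to red cell genes was about as common for strong distal regions, which lay near 55.0% of all genes. They lay near all 9 globin, 14 of 15 heme, 20 of 21 membrane and 19 of 20 transcription factor genes. In the receptor, iron and survival list they lay near 14 of 15.

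At the alpha-globin genes, 3 members stood beside 6 strong distal regions within 50 kb of Hba-a1. The strongest, at chr11:32238508-32238770 in an intron of Nprl3, whose introns hold the known upstream enhancers of these genes, had a signal of 7.61 and a peak in library 2 only, and no GATA motif. The others had signals of 2.13 and 7.33, 2.24 kb and 41.3 kb downstream of the Hba-a1 start, with a peak in neither library. None of these 3 members held a GATA motif (all members 51.7%). At the beta-globin gene Hbb-bs there were 3 members and 6 strong distal regions. All 3 held GATA motifs (all members 51.7%), with signals of 3.21 to 4.59, and 2 had a peak in library 2 (all members 41.4%). The member at chr7:103877094-103877391, 49.2 kb upstream, held the composite. No member lay within 50 kb of Slc4a1, the band 3 anion exchanger of the red cell membrane, which had 3 strong distal regions.

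Among heme genes Slc25a37, the mitochondrial iron importer mitoferrin, and Fech, which inserts iron into protoporphyrin to make heme, had the most members, 8 each. The 8 at Slc25a37 had signals from 2.87 to 7.48. The strongest, at chr14:69238209-69238568, 46.7 kb downstream of the start, held the CTCF core and had a peak in both libraries, and the one beside it (signal 5.56) held the CTCF core and had a peak in neither. Of the membrane genes Dmtn, which encodes the actin-bundling protein dematin, had 10 members with signals of 2.25 to 7.65, against 4 strong distal regions. GATA motifs were in 5 of the 10 and 2 had a peak in both libraries, near the 51.7% and 19.0% of all members. Rhag, of the Rh complex, had 9 members and 2 strong distal regions.

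The transcription factor genes with the most members were Ikzf1, encoding the zinc-finger factor Ikaros, with 14, Klf13 with 13 and Zfpm1, encoding the GATA1 partner FOG1, with 11. At Ikzf1, 12 of the 14 lay in introns, not all of them introns of Ikzf1 itself, and 10 held a GATA motif (all members 56.0% and 51.7%). A peak was in both libraries for 4 (all members 19.0%), in library 1 only for 6 (14.1%) and in library 2 only for 1 (22.4%). Signals of the 14 were 2.66 to 5.38. The member at chr11:11733210-11733562, 48.4 kb from the start, had a signal of 4.98 and a −log10 p of 25.4, above the 95th percentile of members (16.8), and a peak in library 1 only. Lmo2, which bridges TAL1 and GATA1, had 8 members and 1 strong distal region, and was named after its values were seen. Among receptor and survival genes Bcl2l1, which encodes the survival protein Bcl-xL, had 11 members with signals of 3.23 to 5.88. GATA motifs were in 5 of them (all members 51.7%). Of these 11, 2 had a peak in both libraries (all members 19.0%). A peak was in library 2 only for 5 (all members 22.4%) and in library 1 only for none (14.1%), the reverse of the imbalance at Ikzf1.

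Of the 17 progenitor genes, 15 had a member, with a median of 2 per gene, and Hoxa9 and Hoxa10 had none. The most were at Fli1, an ETS factor of megakaryocytes and progenitors, which had 13, against 3 strong distal regions. Their signals were 2.55 to 7.33, 7 held a GATA motif (all members 51.7%) and 7 had a peak in neither library (all members 44.5%). The strongest, at chr9:32549499-32549906, 6.85 kb upstream of the start, had a peak in both. Runx1 had 11 members and 10 strong distal regions, and Erg had 8 and 2. Myc and Mecom had 1 member each, and Kit, Myb and Cd34 had 2 each. Gata2, which GATA1 replaces during maturation and which was named after its values were seen, had 5 members and 3 strong distal regions. The member at chr6:88254103-88254364, 60.3 kb downstream of the start, held the composite, with a signal of 3.88 and a peak in library 2 only. In the myeloid list Spi1, encoding the factor PU.1, had 6 members with signals of 3.32 to 4.72. GATA motifs were in 4 of these (all members 51.7%) and 1 had a peak in both libraries (all members 19.0%). Introns held 5 (all members 56.0%), not all of them introns of Spi1 itself. No expression was measured here, so nearness to a gene is a position and assigns no member to a target.

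For 7 of the remaining lists, the strongest member within reach of a list gene had a signal of 9.25 (Alad, in an intron of Rgs3), 8.42 (Kel, in an intron of Trpv5), 7.41 (Nfe2, in an intron of Copz1), 8.29 (Tfr2, in an intron 1.2 kb from the nearest of its TSSs), 8.48 (Cd34), 7.97 (Elane) and 8.29 (Cd4, in an exon of Gpr162). Nfe2 encodes a subunit of the globin gene activator NF-E2, and Tfr2 is a transferrin receptor of red cell precursors. The members for Nfe2 and Tfr2 held GATA motifs (all members 51.7%), the member for Cd4 held the CTCF core (all members 7.19%), and the others named here held neither. Those for Alad and Cd4 had a peak in library 2 only (all members 22.4%), and the other 5 had a peak in both (all members 19.0%).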

How the data were processed

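The study deposited ATAC-seq peak lists from 2 libraries of 1 group, on mm10 per the labels, in which the authors give each peak a signal, −log10 p and q-values and a summit, and each ranked list an IDR score. The signal is the authors' per-peak value. Its scaling, the aligner, peak caller, read filters, any transposase shift, versions and the depth in reads were not given in the sources used here. As the deposited file list has it, peaks were called for each library, its pseudoreplicates and the pooled libraries. In all 13 peak lists were read, and 8 unnamed columns of per-sample values in the ranked lists were not used.

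Overlapping peaks (at least 1 bp) of the replicated list were merged, and each region took the summit of its row of largest signal. A peak was called in a library when that library's pseudoreplicated list overlapped it. Positions came from GENCODE M21 (54363 protein-coding TSS positions, 21911 genes) and sequence from RefSeq GRCm38, whose chromosomes match mm10. Motifs were exact patterns within 100 bases of the summit, on both strands. Flanks were windows 1 kb away that overlapped no region. The 13 gene lists held 216 genes, of which 215 matched by symbol. The members, motifs and lists were chosen with earlier results of these data known. Named members were the 10 of largest signal, the 5 strongest with a composite, the 3 strongest with a CTCF core, those nearest the limits, and, for each blood list, its strongest member and genes with most members. Sequences printed are a choice from these, and 1 named member is not reported here.

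Shares have 95% Wilson intervals. No test was run, since there is 1 group. Interval, motif and merging code was tested on simulated data. Tools were Python 3.11.15, numpy 2.4.6, pandas 2.3.3 and matplotlib 3.10.9. Alternatives changed the overlap, TSS distance, TSS set, q-value, list, window, gene margin and library.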

Additional observations from a re-analysis of the deposited data

How the results depend on the processing

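The number of members stayed within 1.5 times of 20902 when the overlap had to be 50% of the shorter region (20902), with a TSS distance of 2 kb (19895) or 500 bp (21988), with TSS of all transcripts (19359), at a q-value of 0.001 or less (18130) and in each library's own lists (14730 to 16818). The archived list gave 121690, since it holds far more peaks. Of 74 alternatives run, 57 moved a value by more than the SD between the libraries, or, for the share called in both libraries, outside its interval, or, for the number of members, by over 1.5 times. The 57 include median signals taken from other lists, which are on separate scales, so those signals are not read as shifts. That SD rests on 2 libraries and is small. With the archived list the median signal was 3.17, the intron share 49.2%, the median TSS distance 38.0 kb, GATA 42.7%, the composite 2.48%, the CTCF core 2.68%, GC 46.3%, repeats 5.72% and the share within 5 kb of a strong region 13.5%, and 100% of red cell list genes had a member. With members above the median signal only, the values were a signal of 5.74, introns 54.9%, distance 20.4 kb, GATA 48.2%, composite 5.20%, CTCF core 11.1%, GC 49.3%, repeats 11.1%, within 5 kb 13.8%, red cell list genes 77.5% and called in both libraries 30.0%. At 2 kb from a TSS the signal was 4.73, the distance 21.8 kb, the CTCF core 7.33%, the share within 5 kb 20.2% and red cell list genes 88.75%. Leaving out one library at a time gave a signal of 5.27 to 5.28, introns 56.0% to 57.3%, distance 17.9 to 18.1 kb, GATA 52.2% to 52.7%, composite 6.18% to 6.47%, CTCF core 8.02% to 8.16%, GC 49.3% to 49.8%, repeats 10.4% to 10.6%, within 5 kb 16.1% to 17.4% and red cell list genes 91.25% to 92.5%, all from each library's own lists. Within 50 and 200 bases of the summit GATA was 32.8% and 70.3%, the composite 3.15% and 7.41% and the CTCF core 6.85% and 7.29%. Margins of 20 and 100 kb gave 83.75% and 96.25% of red cell list genes. Chosen after seeing the data, members with summits outside repeats had GATA at 52.3% and the CTCF core at 7.57%, and members over 5 kb from a strong region had 51.0% and 7.81%. The cause of these shifts was not tested. No paired analysis was possible because there is 1 group. Read depth is unknown, so the limit it sets on weak regions could not be given.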

Other observations

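Some stretches of the genome held many members. The 100 kb with the most, chr12:115556551-115656550, had 21 members and no strong distal region. It overlaps 5 immunoglobulin heavy chain V genes and no other protein-coding gene. Its members had signals from 2.33 to 5.81, 9 held a GATA motif (all members 51.7%) and 4 had a peak in both libraries (all members 19.0%). The next, at chr11:3102882-3202881 over Sfi1, Drg1 and Eif4enif1, had 17 members with signals of 1.85 to 3.48 and 6 strong distal regions. At chr7:63905387-64005386, over Klf13, there were 16 members and 9 strong distal regions, and 9 members held a GATA motif. At chr1:151074689-151174688, which overlaps no protein-coding gene, there were 14 members, of which 11 held a GATA motif. At chr12:3223497-3323496, over Rab10, there were 13 members, of which 6 had their summit in a repeat (all members 11.3%). Whether reads in these stretches map to more than 1 place was not tested.

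Chromosome X carried 366 members, or 2.14 per Mb, and chromosome Y 5. The autosomes ranged from 6.80 to 10.1 per Mb. Strong distal regions were at 1.39 per Mb on chromosome X, so members were 60.6% of the distal regions there, within the range of the autosomes (57.6% to 69.6%, the highest on chromosome 14).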
